A study of Mus musculus with 12 samples.

Results

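Genes were sought whose transcript levels separated both NFI knockout groups from both wild-type groups in the mouse neocortex at embryonic day 16. The nuclear factor I (NFI) family comprises transcription factors encoded in mammals by Nfia, Nfib, Nfic and Nfix. They bind DNA as dimers, homodimers or heterodimers, to a palindrome that begins with TTGGC and ends with GCCAA. In the embryonic cortex Nfia and Nfib are known for promoting the differentiation of radial glia, the neural stem cells of the ventricular zone, and for the start of astrocyte development, and mice without either gene lack much of the corpus callosum.

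The data came from 12 RNA sequencing libraries of microdissected neocortex. The Nfia line (strain Nfia{tm1Rmg} on C57BL/6) gave 2 wild type libraries and 4 from homozygous Nfia knockout embryos, and the Nfib line (Nfib{tm1Rmg} on C57BL/6) gave 2 wild type libraries and 4 from homozygous Nfib knockout embryos. All groups share the C57BL/6 background, the stage and the tissue, and no label ties a library to an embryo or litter. The values are the authors' 1 average per group in FPKM, fragments scaled to transcript length and library size, so neither a spread over libraries nor a read depth can be stated, and statements of error rest on the q-values in the authors' deposited table. Wild type was compared with knockout within each line there, and these 2 comparisons share no libraries.

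A gene was compared when it reached 1 FPKM in at least 1 of the 4 groups. Rows listed at 0 in one group and above 50 FPKM in another were dropped, since such a 0 can be a failed estimate. This left 12561 of 23352 gene rows, with 6 dropped under the second rule, among them the abundant Eef1a1 and Tuba1a. The 2 knockout and 2 wild-type averages form 4 pairings. A gene counted as higher when the smaller knockout average exceeded the larger wild-type average, and as lower when the larger knockout average lay under the smaller wild-type average, so every fold given below as the smallest pairing is the least favourable of the 4. Paired values are given with the Nfia line first and the Nfib line second, knockouts before wild types. Since RNA came from bulk tissue, fewer cells of a type and less RNA per cell cannot be told apart in any of these values.

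By any margin, 1814 genes were higher in both knockouts (14.4% of those compared) and 2235 were lower (17.8%), while the groups overlapped for 8512 genes (67.8%). Which direction held more genes at this margin reversed when the columns were scaled, with 2073 higher and 1958 lower. At 1.5-fold or more in all 4 pairings, 30 genes were higher (0.239%) and 48 lower (0.382%), and at 2-fold 7 were higher (0.0557%) and 14 lower (0.111%). A stricter layer asked for a q-value of at most 0.05 in both lines of the authors' deposited table together with all 4 pairings in 1 direction. It held 20 genes that rose (0.16% of 12511 tested in both lines) and 51 that fell (0.408%), and "rose" and "fell" are kept below for these genes. Among genes compared, 173 passed the deposited q-value in both lines, of which 72 moved the same way and 101 opposite ways. Of the 72, Ccdc80 alone did not hold in all 4 pairings: it was at 2.26 and 4.22 FPKM in the Nfia and Nfib knockouts and at 3.89 and 6.87 FPKM in the respective wild types, so the Nfib knockout lay above the Nfia-line wild type.

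**Figure D1:**
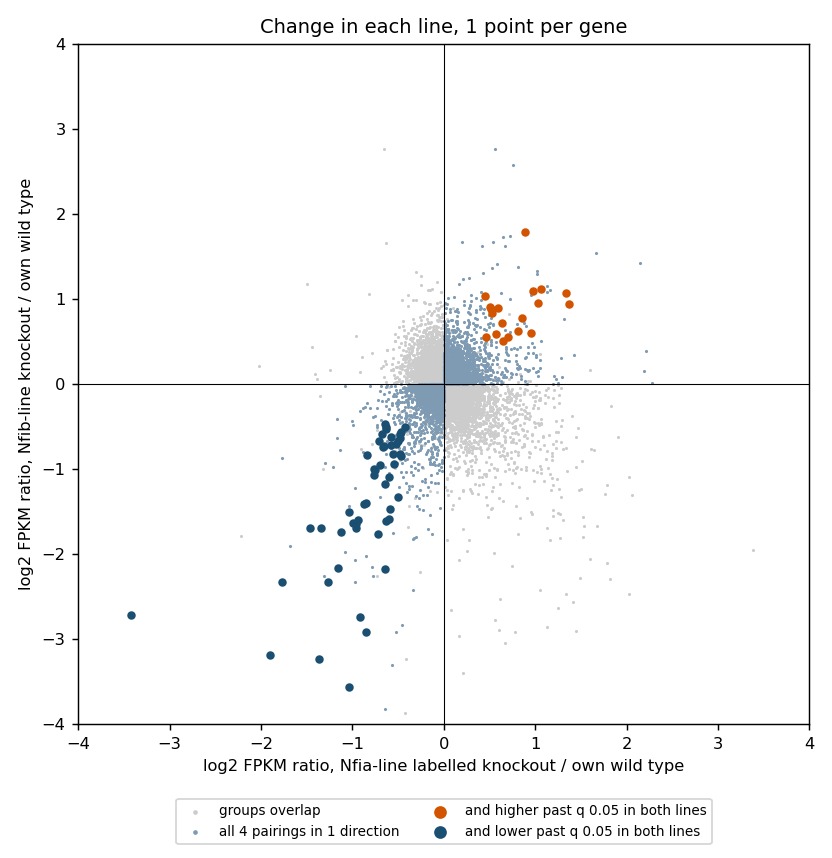
Each point is 1 gene, with the log2 ratio of knockout to own-line wild-type FPKM in the Nfia line on the horizontal axis and in the Nfib line on the vertical axis. 12524 genes with values above 0 are drawn and 13 lie outside the axes at 4 log2 units; large points mark genes past the deposited q-value in both lines, 51 lower and 19 of the 20 higher, Ttr lying outside. Blue-grey points are genes whose 4 pairings share a direction, and the grey points in the lower right quadrant, higher in the Nfia and lower in the Nfib comparison, reach farther from the centre than those in the upper left.

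The groups were first checked against their labels. The Nfib transcript was at 9.12 FPKM in the Nfib knockouts and at 134 FPKM in their wild types, with 142 and 190 FPKM in the Nfia knockouts and their wild types. Nfia was at 28.2 FPKM in the Nfia knockouts and 33.7 FPKM in their wild types, a difference short of the threshold (q = 0.477 in the authors' deposited table). The labels do not say which part of the gene the Nfia allele removes, and an average over the whole gene cannot check a partial deletion, so the Nfia knockout groups are named from their labels only. Of the 4 NFI genes, Nfix alone was lower in all 4 pairings, at 108 and 144 FPKM in the Nfia and Nfib knockouts and 165 and 163 FPKM in the wild types; it passed in the Nfia comparison and not in the Nfib comparison (q = 0.00286 and 0.853 in the authors' deposited table). Transcripts from the sex chromosomes also differed between the groups. Xist, expressed from the inactive X, was at 77.0 and 86.0 FPKM in the knockouts, 161 FPKM in the Nfia-line wild types and 0.207 FPKM in the Nfib-line wild types. The Y-linked Eif2s3y was at 20.2 and 14.7 FPKM in the knockouts, 0.0811 FPKM in the Nfia-line wild types and 34.1 FPKM in the Nfib-line wild types. Xist with hardly any Y-linked transcript marks females and the reverse males, so by these transcripts the wild types of the 2 lines differed in sex. Both knockout groups held both kinds of transcript. Sex therefore cannot be told apart from line, nor from genotype within a line. Ratios against the Nfia-line and Nfib-line wild types carry opposite differences in these genes. With both knockouts between the wild types, none of the 5 sex-linked genes measured could hold in 1 direction over the 4 pairings. Without genes on the X and Y chromosomes 28 genes were higher and 46 lower at 1.5-fold, and 20 rose and 50 fell in both lines.

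Because NFI proteins recognise TTGGC and its complement GCCAA, the 250 bases before the annotated start were searched on both strands in the RefSeq promoter table of build GRCm38.p6, which held 37 of the 51 genes that fell and 16 of the 20 that rose. Aox4 and Dync1i1, which fell, carried the longer form TTGGCA, the latter in 2 copies. Dio2, which fell, and Ttc7, which rose, carried TTGGC without the A. Lrrtm3, which rose, carried TTGGCA. The 5 windows below are shown because they hold the motif among genes that moved in each direction; capitals mark TTGGC or GCCAA, coordinates are 1-based on GRCm38.p6 and each is read 5′ to 3′ on the strand of its gene.
Aox4, chr1:58210147-58210396, plus strand: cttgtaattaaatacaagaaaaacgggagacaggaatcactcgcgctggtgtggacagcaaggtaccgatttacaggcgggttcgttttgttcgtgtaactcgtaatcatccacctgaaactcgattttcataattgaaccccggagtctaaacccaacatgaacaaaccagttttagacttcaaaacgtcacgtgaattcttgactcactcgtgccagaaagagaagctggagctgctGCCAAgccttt
Dync1i1, chr6:5725389-5725638, plus strand: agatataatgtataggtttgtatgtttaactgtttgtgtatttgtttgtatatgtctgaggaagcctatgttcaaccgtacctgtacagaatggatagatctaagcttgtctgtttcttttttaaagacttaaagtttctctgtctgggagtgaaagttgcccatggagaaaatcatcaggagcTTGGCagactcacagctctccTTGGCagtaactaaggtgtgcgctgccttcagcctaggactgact
Dio2, chr12:90739039-90739288, minus strand: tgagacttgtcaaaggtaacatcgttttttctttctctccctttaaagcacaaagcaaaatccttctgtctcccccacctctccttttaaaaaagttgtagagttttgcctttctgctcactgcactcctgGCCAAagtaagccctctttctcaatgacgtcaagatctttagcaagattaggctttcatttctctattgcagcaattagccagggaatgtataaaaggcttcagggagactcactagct
Ttc7, chr17:87282636-87282885, plus strand: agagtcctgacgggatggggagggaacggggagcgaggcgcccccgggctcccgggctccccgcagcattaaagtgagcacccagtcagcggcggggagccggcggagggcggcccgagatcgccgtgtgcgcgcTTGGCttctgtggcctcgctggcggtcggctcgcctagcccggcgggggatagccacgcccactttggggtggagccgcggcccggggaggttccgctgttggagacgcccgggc
Lrrtm3, chr10:64090256-64090505, minus strand: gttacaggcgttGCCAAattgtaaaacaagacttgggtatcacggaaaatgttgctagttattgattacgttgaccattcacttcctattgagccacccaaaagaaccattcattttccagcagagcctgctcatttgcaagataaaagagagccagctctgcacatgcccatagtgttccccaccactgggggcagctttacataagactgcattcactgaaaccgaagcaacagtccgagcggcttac

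The motif's first base lay 11 bases before the start of Aox4, 66 and 45 bases before that of Dync1i1, 119 bases before that of Dio2, 115 before that of Ttc7 and 238 before that of Lrrtm3. TTGGCA, which contains TTGGC, stood in at least 1 window of 7 of the 37 genes that fell (18.9%), of 1 of the 16 that rose (6.25%) and of 1074 of the 9289 genes compared that the table held (11.6%); a gene with several annotated starts has several windows. The shorter TTGGC did so for 23 (62.2%), 8 (50%) and 4695 (50.5%) of these genes. No window of either gene set held the full palindrome of TTGGC, 5 further bases and GCCAA, which occurred for 3 of the 9289 genes (0.0323%). A match is a string of letters and not a shown binding site.

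The genes that fell in both lines by the widest margin were the matrix enzyme gene Loxl1, the thyroid hormone deiodinase gene Dio2, the aldehyde oxidase gene Aox4, the anion transporter gene Slc26a7 and the retinaldehyde reductase gene Dhrs3. The 51 genes had a median deposited log2 fold of -0.71 in the Nfia comparison and -1.17 in the Nfib comparison of the authors' deposited table, and 44 of the 51 had the larger fold in the Nfib comparison. The smaller wild-type average, which sets the smallest pairing, was that of the Nfia line for 37 of them, and the larger knockout average was that of the Nfia line for 38. Among the 51, a fold against the Nfib-line wild type was thus usually the larger. The matching shares over all genes compared were not counted, so these 3 counts are not read as particular to the 51. Over all genes tested, 3.23% passed as lower in the Nfib comparison and 1.19% in the Nfia comparison.

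**Figure D2:**
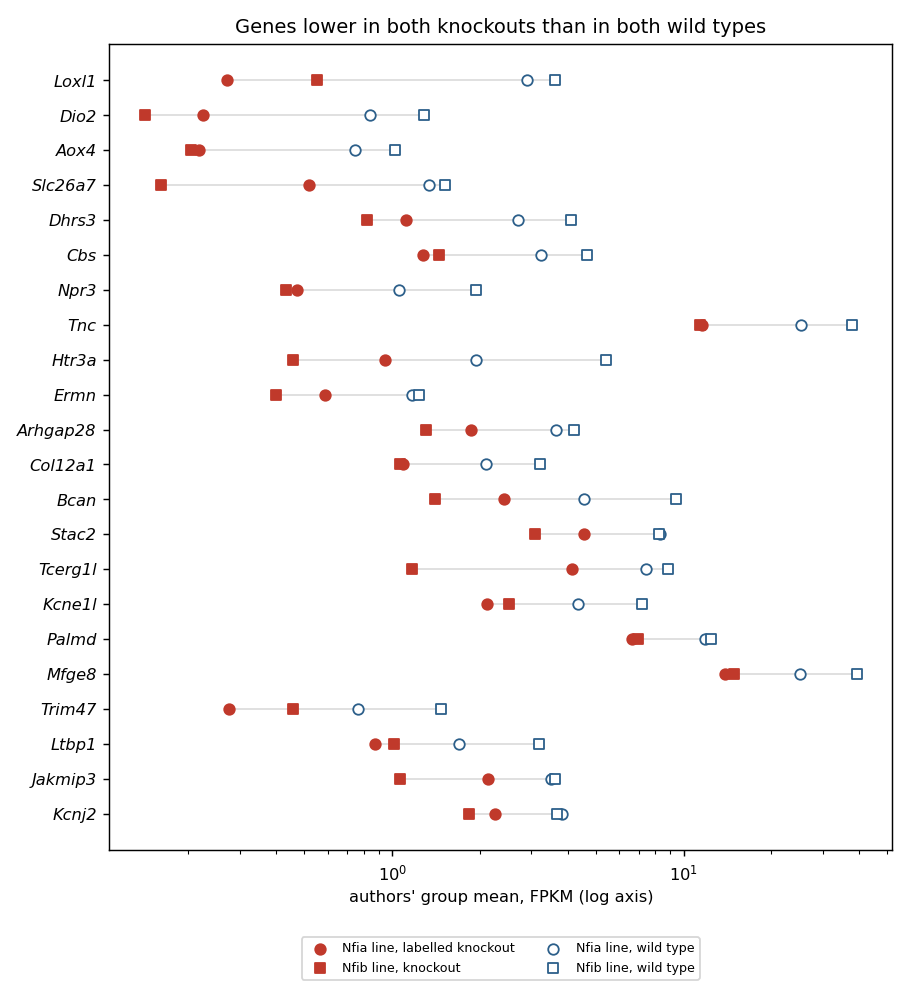
The authors' group averages in FPKM on a log axis for the 22 genes with the largest smallest-pairing fold among the 51 that fell in both lines; filled red symbols are knockouts and open blue symbols wild types, circles the Nfia line and squares the Nfib line. In each row both filled symbols lie left of both open symbols, with Loxl1 showing the widest gap at 5.25-fold.

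Loxl1, a lysyl oxidase that crosslinks elastin in the extracellular matrix, had the widest separation of all genes compared that were above 0 in every group. It was at 0.271 and 0.552 FPKM in the Nfia and Nfib knockouts and at 2.90 and 3.62 FPKM in the Nfia-line and Nfib-line wild types. Its smallest pairing was 5.25-fold lower, and the deposited log2 folds were -3.43 and -2.70 in the Nfia and Nfib comparisons of the authors' deposited table (q = 0.00286 and 0.00207). Tnc, tenascin-C, a matrix glycoprotein of the germinal zones, was at 11.5 and 11.3 FPKM in the knockouts and 25.2 and 37.8 FPKM in the wild types. Both knockouts were nearly equal in Tnc while the wild types differed, and the smallest pairing was 2.18-fold (q = 0.00286 and 0.00207 in the authors' deposited table). Bcan, brevican, a proteoglycan of the brain matrix and of astrocytes, was at 2.41 and 1.40 FPKM in the knockouts against 4.57 and 9.39 FPKM in the wild types, with the Nfib-line wild type well above the Nfia-line one. Matrix genes outside the list that also fell were Col12a1 (smallest pairing 1.92-fold), Ltbp1, which binds latent TGF-beta (1.66-fold), and Col15a1 (1.51-fold).

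Across the list of brain matrix genes and lysyl oxidases, 7 of the 11 members compared were lower in all 4 pairings (63.6%, beside 17.8% of all genes) and none was higher, while 3 fell in both lines. The list's median over the 4 pairings was -0.23 on the log2 scale, beside -0.0055 over all genes. This and the other gene lists were chosen with earlier results of these data known, so their shares are descriptions and not tests. The members that were lower without passing in both lines were Ptprz1, Loxl2, Cspg4 and Ncan. Ptprz1, a receptor phosphatase of radial glia that binds matrix, was at 63.4 and 61.7 FPKM in the knockouts and 78.9 and 74.6 FPKM in the wild types, and passed in neither line (q = 0.234 and 0.519 in the authors' deposited table). Of the 17 listed genes 6 stayed under 1 FPKM in every group: Acan, Hapln1, Hapln2, Hapln4, Lox and Loxl4.

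Several genes that move or convert thyroid hormone were lower in both knockouts. Dio2, the deiodinase that converts thyroxine to the active hormone, was at 0.225 and 0.142 FPKM in the Nfia and Nfib knockouts and at 0.840 and 1.29 FPKM in the wild types, a smallest pairing of 3.73-fold. It fell in both lines (log2 folds -1.91 and -3.16, q = 0.00286 and 0.00207 in the authors' deposited table), although its level was at or under about 1 FPKM throughout. Slco1c1, a thyroxine transporter of brain endothelium and glia, was at 3.99 and 2.98 FPKM in the knockouts and 6.02 and 8.25 FPKM in the wild types and also fell in both. Crym, which binds the hormone in the cytoplasm, was at 2.28 and 1.59 FPKM in the knockouts and 3.56 and 22.5 FPKM in the wild types. The large Crym difference was in the Nfib comparison, and the Nfia comparison did not pass (q = 0.232 and 0.00207 in the authors' deposited table). The corepressor gene Hr (2.45 and 2.80 against 3.53 and 3.28 FPKM) and the receptor gene Thra (284 and 273 against 288 and 318 FPKM) were lower by small margins and passed in neither line. Klf9 and Thrb, also listed, stayed under 1 FPKM in every group. The deposited log2 folds of Thrb were above 0, at 0.59 and 0.83, and passed in neither line. Ttr, a thyroxine carrier gene outside this list, rose in both lines. In all, 5 of the 7 members compared were lower in all 4 pairings (71.4%, beside 17.8% of all genes), none was higher, and 2 fell in both lines. The list's median over the 4 pairings was -1.03, from -0.54 in the Nfia and -1.45 in the Nfib comparison. Because the list was chosen with earlier results of these data known, its share is a description only.

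Other genes with wide separations were in none of the lists. Aox4, an aldehyde oxidase, was at 0.218 and 0.204 FPKM in the knockouts and 0.743 and 1.02 FPKM in the wild types. Dhrs3, which reduces retinaldehyde and so limits retinoic acid synthesis, was at 1.11 and 0.819 FPKM in the knockouts and 2.69 and 4.11 FPKM in the wild types. Cbs, cystathionine beta-synthase of the transsulfuration pathway, was at 1.28 and 1.44 FPKM against 3.24 and 4.65 FPKM. All of these fell in both lines with the wild types of the Nfib line highest, and their smallest pairings were 3.41-fold, 2.42-fold and 2.24-fold. Slc26a7, an anion transporter gene, was at 0.519 and 0.161 FPKM in the knockouts and 1.34 and 1.52 FPKM in the wild types. Npr3, the clearance receptor of natriuretic peptides, was at 0.472 and 0.432 FPKM against 1.06 and 1.94 FPKM. Both fell, by 2.57-fold and 2.24-fold in the smallest pairing.

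Among radial glial genes only a few separated the groups. Mfge8, a secreted protein that bridges phosphatidylserine to integrins, was at 13.9 and 14.9 FPKM in the knockouts and 25.0 and 39.3 FPKM in the wild types. Lhx2, a homeodomain factor of cortical progenitors, was at 48.1 and 62.1 FPKM against 75.0 and 86.3 FPKM. With Tnc these are the 3 of 25 list members that fell in both lines; the knockouts differed little for Mfge8 and more for Lhx2, where the Nfib knockout lay nearer to the wild types. Over the list 4 members were lower (16%) and 3 higher (12%), close to the shares of all genes (17.8% and 14.4%), and the median over the 4 pairings was 0.064. The most abundant members overlapped: Fabp7, a lipid-binding protein of radial glia, was at 525 and 580.3 FPKM in the knockouts and 427 and 592 FPKM in the wild types, and the intermediate filament gene Vim at 166 and 218 against 170.3 and 219 FPKM. For Vim and Fabp7 the wild types of the lines thus differed more from each other than either knockout did from its own-line wild type. The progenitor genes that were higher included Id4, an inhibitor of helix-loop-helix factors, at 34.3 and 49.6 FPKM in the knockouts and 25.4 and 27.7 FPKM in the wild types; it passed in the Nfib comparison alone (q = 0.0903 and 0.00207 in the authors' deposited table).

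Of 19 astrocyte genes compared, 6 were lower in all 4 pairings (31.6%, beside 17.8% of all genes) and none was higher. Bcan was the 1 member that fell in both lines. Apoe, a lipid carrier, was at 16.1 and 16.5 FPKM in the knockouts and 19.5 and 31.6 FPKM in the wild types, and Clu, another secreted chaperone and lipid carrier, at 10.1 and 10.7 against 10.8 and 18.2 FPKM. Both passed in the Nfib comparison alone. Scrg1 was at 1.58 and 0.869 FPKM against 2.17 and 6.20 FPKM and likewise passed in the Nfib comparison alone. The medians of the list differed in sign between the comparisons, 0.072 for Nfia and -0.50 for Nfib in the authors' deposited folds, and 11 members passed as lower in the Nfib comparison against 1 in the Nfia comparison, beside 3.23% and 1.19% of all genes tested. The difference between lines was not tested. Mature astrocyte genes such as Gfap and Aqp4 stayed under 1 FPKM in every group.

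In the oligodendrocyte lineage list, 3 of 13 members were lower (23.1%, beside 17.8% of all genes) and 1 was higher (7.69%, beside 14.4%). Lhfpl3, a membrane protein gene of oligodendrocyte precursors, rose in both lines, at 9.22 and 6.78 FPKM in the knockouts and 4.75 and 4.47 FPKM in the wild types. Pdgfra, the receptor that marks these precursors, was at 3.70 and 2.81 FPKM against 4.08 and 5.10 FPKM, and Olig2, a transcription factor of the lineage, at 3.25 and 2.15 against 3.40 and 4.82 FPKM. These 2 were lower, in the opposite direction to Lhfpl3, and passed in the Nfib comparison alone. Ermn, a cytoskeletal protein of oligodendrocytes that was not on the list, fell in both lines from 1.17 and 1.24 FPKM in the wild types to 0.587 and 0.399 FPKM in the knockouts.

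Among genes of upper-layer cortical neurons, Dok5 and Pou3f1 fell in both lines. Of 18 members compared, 12 were lower in all 4 pairings (66.7%, beside 17.8% of all genes), 2 were higher (11.1%, beside 14.4%) and 4 overlapped. Dok5, an adaptor of receptor tyrosine kinases, was at 33.0 and 24.0 FPKM in the Nfia and Nfib knockouts and 50.1 and 51.0 FPKM in the wild types. Pou3f1, a POU transcription factor, was at 13.9 and 11.9 FPKM in the knockouts and 20.7 and 19.5 FPKM in the wild types. For each of these the 2 wild types lay close together while the Nfib knockout was lower than the Nfia knockout. Bhlhe22, a transcription factor of cortical neurons, was at 63.8 and 53.3 against 83.3 and 86.4 FPKM and passed in the Nfib comparison alone. Pou3f2 was at 32.8 and 33.4 against 58.8 and 38.9 FPKM and passed in the Nfia comparison alone. Many members were lower by small margins only, and a smallest pairing can cross lines, so its error cannot be stated. Cux1, at 60.3 and 59.9 FPKM in the knockouts and 73.6 and 65.0 FPKM in the wild types, had a smallest pairing of -0.11 on the log2 scale. Ptn and Pvrl3 lay at -0.04 and -0.02. The list's median over the 4 pairings was -0.20, with -0.36 in the Nfia and -0.12 in the Nfib comparison. Lpl, lipoprotein lipase, was higher, at 8.74 and 9.71 FPKM in the knockouts and 5.46 and 7.31 FPKM in the wild types.

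Deep-layer neuron genes were mixed, with 6 of 19 lower (31.6%, beside 17.8% of all genes) and 4 higher (21.1%, beside 14.4%). Tle4, a corepressor of layer 6 neurons, was the 1 member that fell in both lines, at 24.8 and 21.99 FPKM in the knockouts and 37.0 and 33.97 FPKM in the wild types. Zfpm2 (6.63 and 6.83 against 9.66 and 9.33 FPKM) and Hs3st4 (27.1 and 24.9 against 36.4 and 32.9 FPKM), a heparan sulfate sulfotransferase gene, were lower and passed in the Nfia comparison alone. Bcl11b, a regulator of subcerebral projection neurons, and Sox5 were higher by margins of 0.03 and 0.02 on the log2 scale and passed in the Nfib comparison alone. Subplate genes split as well, with 4 of 9 higher (44.4%, beside 14.4% of all genes) and 3 lower (33.3%, beside 17.8%), and no member passed in both lines.

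Further genes outside these lists fell in both lines. Gucy1a3, a subunit of the nitric oxide receptor guanylate cyclase, was at 31.0 and 16.3 FPKM in the Nfia and Nfib knockouts and 47.0 and 49.2 FPKM in the wild types. Cnr1, the cannabinoid receptor of growing cortical axons, was at 46.7 and 36.2 FPKM against 64.6 and 64.9 FPKM. Dync1i1, a dynein intermediate chain of neurons, was at 62.8 and 48.7 FPKM against 89.0 and 77.6 FPKM. For each of them the Nfib knockout was the lower of the knockouts, and the smallest pairings were 1.52-fold, 1.38-fold and 1.24-fold. Mycn, a growth-promoting transcription factor, was at 38.4 and 34.3 FPKM in the knockouts and 53.2 and 50.9 FPKM in the wild types, and Clstn2, a synaptic membrane protein, at 27.6 and 24.2 against 42.7 and 35.0 FPKM. March4, a membrane-bound ubiquitin ligase, was at 18.8 and 15.2 against 26.1 and 27.0 FPKM. Ntrk3, the neurotrophin-3 receptor, fell from 21.1 and 21.2 FPKM in the wild types to 15.2 and 14.1 FPKM in the knockouts. Igfbp3, which binds insulin-like growth factors, was at 12.7 and 7.17 FPKM against 19.7 and 21.96 FPKM, and Palmd, palmdelphin, at 6.64 and 6.95 against 11.9 and 12.4 FPKM. Potassium channel genes among the 51 were Kcnj2 (2.25 and 1.84 against 3.81 and 3.68 FPKM), Kcnq5 (4.96 and 3.29 against 7.27 and 5.83 FPKM) and the X-linked Kcne1l (2.12 and 2.52 against 4.33 and 7.18 FPKM). Kcnq5 had the narrowest separation of the 51, at 1.18-fold.

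Among 39 axon guidance and adhesion genes, 11 were lower (28.2%, beside 17.8% of all genes) and 7 higher (17.9%, beside 14.4%). Nrp1, the receptor of class 3 semaphorins, was the 1 member that fell in both lines, at 19.9 and 25.3 FPKM in the knockouts and 31.6 and 42.2 FPKM in the wild types (log2 folds -0.68 and -0.73, q = 0.00286 and 0.00207 in the authors' deposited table). Its ligand gene Sema3c was at 12.1 and 15.3 FPKM against 18.6 and 19.5 FPKM and passed in the Nfia comparison alone. Sema6d (25.0 and 29.7 against 20.9 and 16.5 FPKM) and Sema5a (17.7 and 29.2 against 15.5 and 9.15 FPKM) were higher and passed in the Nfib comparison alone. A further 3 members passed in both lines in opposite directions, beside 101 of the 12511 genes tested in both lines.

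The 20 genes that rose in both lines had median log2 folds of 0.74 in the Nfia and 0.91 in the Nfib comparison of the authors' deposited table. The larger fold was in the Nfib comparison for 12 of them, a share not counted over all genes, and 10 passed 1.5-fold in all 4 pairings. Of the 51 and 20 genes together, 15 belong to a list.

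**Figure D3:**
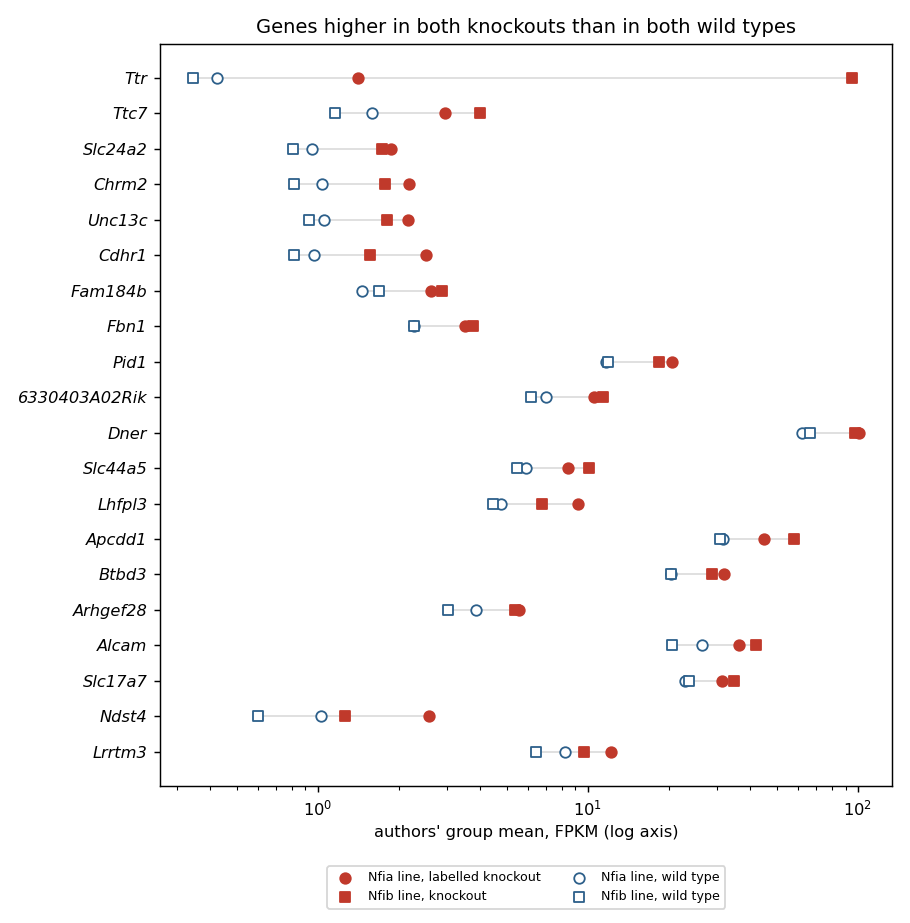
The authors' group averages in FPKM on a log axis for the 20 genes that rose in both lines, sorted by smallest pairing; filled red symbols are knockouts and open blue symbols wild types, circles the Nfia line and squares the Nfib line. In each row both filled symbols lie right of both open symbols, from Ttr at 3.31-fold to Lrrtm3 at 1.18-fold.

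Ttr, transthyretin, a thyroxine carrier made by the choroid plexus, had the widest separation of the 20, at 1.41 and 94.8 FPKM in the Nfia and Nfib knockouts and 0.425 and 0.346 FPKM in the wild types (log2 folds 1.71 and 8.10, q = 0.0134 and 0.00207 in the authors' deposited table). The Nfib knockout stood far above the other groups, and the smallest pairing, the Nfia knockout with the Nfia-line wild type, was 3.31-fold. Dner, a neuronal transmembrane protein related to Notch ligands, was the most abundant by its mean over the groups, at 101 and 97.4 FPKM in the Nfia and Nfib knockouts and 62.4 and 66.6 FPKM in the wild types. The knockouts lay close together and so did the wild types, and the smallest pairing was 1.46-fold (log2 folds 0.69 and 0.58, q = 0.00286 and 0.00385 in the authors' deposited table). Apcdd1, a membrane inhibitor of Wnt signalling, was at 44.9 and 57.9 FPKM in the knockouts and 31.5 and 30.9 FPKM in the wild types. Alcam, an adhesion molecule of growing axons, was at 36.3 and 42.0 FPKM against 26.5 and 20.5 FPKM. Slc17a7, the vesicular glutamate transporter VGLUT1, was at 31.4 and 34.7 FPKM in the knockouts and 22.9 and 23.8 FPKM in the wild types. In these 3 genes the Nfib knockout was the higher of the knockouts. Btbd3, which orients dendrites towards active axons, was at 31.8 and 28.9 FPKM against 20.3 and 20.3 FPKM, and Pid1 at 20.5 and 18.3 against 11.7 and 11.9 FPKM. Lrrtm3, a synaptic adhesion protein, was at 12.2 and 9.70 FPKM against 8.23 and 6.45 FPKM, the narrowest separation of the 20.

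Other genes that rose were less abundant. Ttc7, a tetratricopeptide repeat protein, was at 2.95 and 3.99 FPKM in the knockouts and 1.59 and 1.16 FPKM in the wild types, a smallest pairing of 1.86-fold. Slc24a2, a sodium, calcium and potassium exchanger, was at 1.87 and 1.73 FPKM against 0.950 and 0.808 FPKM. Chrm2, the muscarinic M2 receptor, was at 2.17 and 1.77 FPKM against 1.04 and 0.819 FPKM, and Unc13c, which primes synaptic vesicles, at 2.15 and 1.799 against 1.06 and 0.928 FPKM. In each of the last 3 both knockouts lay near 2 FPKM and both wild types near 1 FPKM. Fbn1, fibrillin-1 of the extracellular matrix, was at 3.52 and 3.75 FPKM in the knockouts and 2.27 and 2.27 FPKM in the wild types and so moved opposite to the matrix genes named above. Ndst4, a heparan sulfate enzyme gene, rose with the Nfia knockout well above the Nfib knockout, at 2.58 and 1.26 FPKM against 1.02 and 0.602 FPKM.

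At 1.5-fold without the q-value, 20 of the 30 higher genes did not pass in both lines, 12 of them in neither. The highest of these include Atxn7l1, at 7.96 and 7.88 FPKM against 3.93 and 3.23 FPKM, for which the authors' deposited table gives log2 folds of 0.21 and 0.11 and q-values of 0.923 and 0.986. These folds are more than 0.25 log2 units from the ratio of its own FPKM values, which occurred in 2 of the 12561 rows, so its separation is uncertain. Small RNA genes made up 3 of the 30 higher and 5 of the 48 lower genes, and Snora17 and Snora34 were listed at 0 in both wild types. Of the 48 lower genes, 31 passed in both lines, 9 in one and 8 in neither. Hspb3, a small heat shock protein gene, was at 0.719 and 0.521 FPKM against 1.78 and 2.49 FPKM and passed in the Nfib comparison alone. Around the threshold, Nhs (0.59) and Ipcef1 (0.59) lay just inside and Tll2 (0.58) and Hmga2 (0.56) just outside on the higher side in log2 units, and Col15a1 (-0.59) and Slco1c1 (-0.59) just inside and Tmem200c (-0.58) and Htra1 (-0.57) just outside on the lower side. Hmga2, a chromatin protein of early progenitors, was at 2.99 and 5.31 FPKM in the knockouts and 2.03 and 0.781 FPKM in the wild types and passed in the Nfib comparison alone.

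Cell cycle genes were higher in all 4 pairings in 11 of 35 (31.4%, beside 14.4% of all genes) and lower in 1 (2.86%, beside 17.8%), and none passed in both lines. Their median over the 4 pairings was 0.15, from -0.10 in the Nfia and 0.38 in the Nfib comparison. Cdk1, the mitotic kinase, was at 12.4 and 13.5 FPKM in the knockouts and 10.5 and 10.7 FPKM in the wild types, and its partner Ccnb1 at 24.0 and 26.9 against 21.97 and 20.3 FPKM; both passed in neither line. Of the 35, 7 passed as higher in the Nfib comparison, beside 2.23% of all genes tested, and none in either direction in the Nfia comparison. The 1 lower member was Cdkn1c, which stops the cycle, at 31.8 and 31.9 FPKM against 35.4 and 39.6 FPKM, passing in neither line.

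Of 18 Notch pathway genes, 5 were higher (27.8%, beside 14.4%) and none lower. Besides Dner these were the ligand genes Dll3 (3.95 and 4.57 against 3.32 and 3.49 FPKM) and Dll1 (9.98 and 11.4 against 8.80 and 9.47 FPKM), the target Hes1 (5.49 and 7.84 against 4.62 and 5.33 FPKM) and the receptor gene Notch3 (5.03 and 6.69 against 4.78 and 4.94 FPKM). Dner alone passed in both lines, and the other 4 passed in neither. Wnt, BMP and FGF pathway lists had shares near those of all genes. Within the Wnt list Rspo2, a secreted activator of Wnt signalling, was at 1.01 and 1.04 FPKM in the knockouts and 1.65 and 2.61 FPKM in the wild types. Rspo3 was at 8.31 and 6.13 FPKM against 13.1 and 9.21 FPKM. Rspo2 passed in the Nfib comparison alone and Rspo3 in the Nfia comparison alone.

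**Figure D4:**
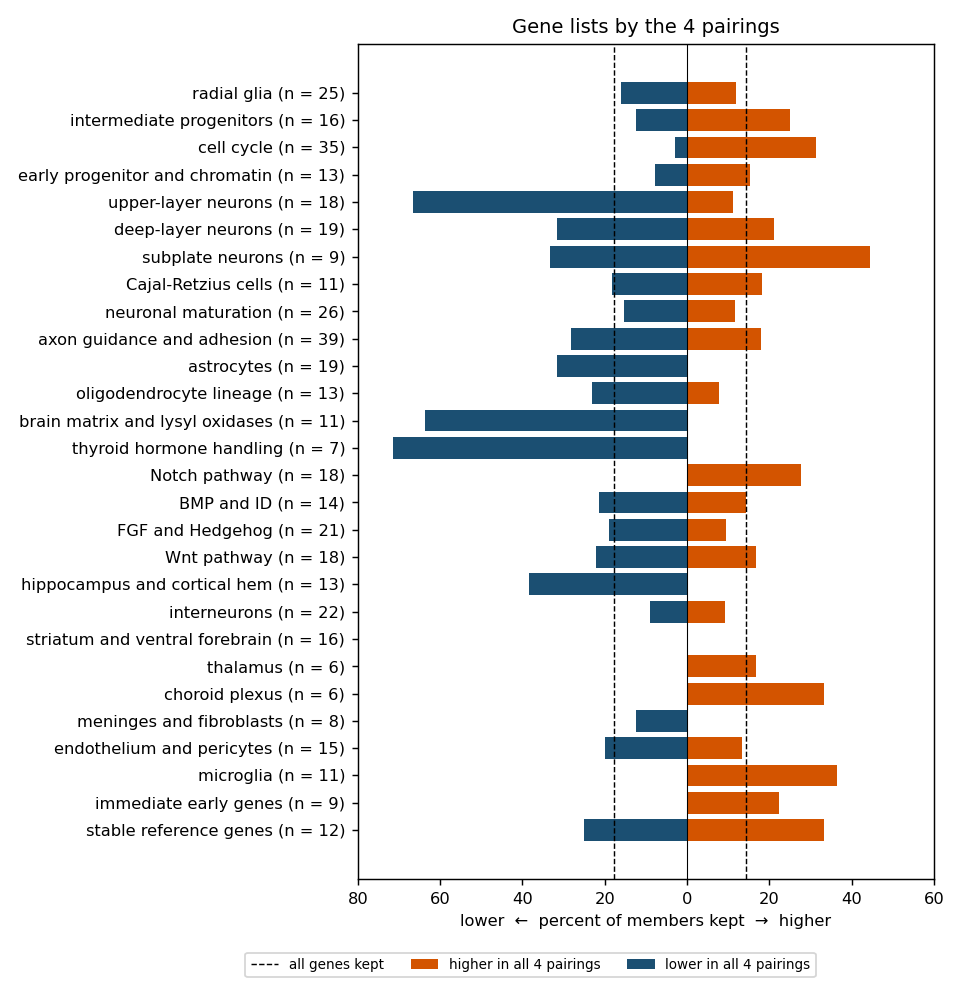
For each gene list, the percent of compared members that were higher (orange, to the right) and lower (blue, to the left) in all 4 pairings, with dashed lines at 14.4% and 17.8%, the shares of all genes; n is the number of members compared. Thyroid hormone handling, upper-layer neurons and brain matrix show the longest bars to the left, at 71.4%, 66.7% and 63.6%, and no bar is drawn for the striatum list because all 16 members overlapped. The lists were chosen with earlier results of these data known, so the shares are descriptions and not tests.

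Genes of ventral forebrain cells did not separate knockouts from wild types. All 16 striatal and ventral forebrain genes overlapped, beside 67.8% of all genes. Of the 16, 9 passed the q-value in both lines in opposite directions, beside 101 of the 12511 genes tested in both lines. The list medians were 0.85 in the Nfia and -1.16 in the Nfib comparison of the authors' deposited table. Isl1, a transcription factor of striatal neurons, was at 7.31 and 0.993 FPKM in the Nfia and Nfib knockouts and 2.60 and 4.84 FPKM in the wild types. Among 22 interneuron genes 2 were higher (9.09%, beside 14.4% of all genes) and 2 lower (9.09%, beside 17.8%). Of the 22, 6 passed in both lines in opposite directions. Gad1, which makes GABA, was at 29.1 and 15.8 FPKM in the knockouts and 16.5 and 25.0 FPKM in the wild types. Htr3a, a serotonin-gated channel subunit of one interneuron class, was the exception that fell in both lines, at 0.946 and 0.457 FPKM against 1.94 and 5.41 FPKM. Over all genes above 0 in every group, the folds of the lines had a Pearson correlation of -0.112 and a Spearman correlation of -0.142 (12537 genes that share libraries within a line, given as a description).

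**Figure D5:**
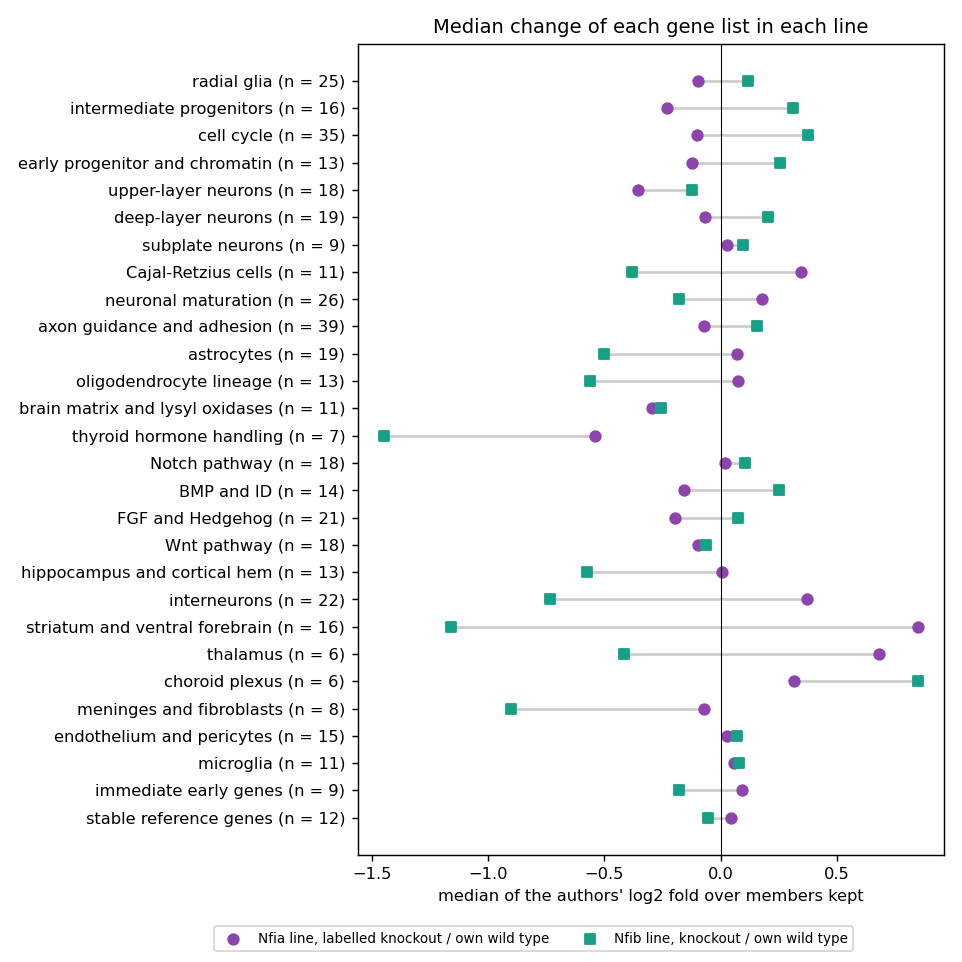
For each gene list, the median of the authors' deposited log2 folds over compared members, in the Nfia line (purple circles) and the Nfib line (green squares), joined by a grey line; n is the number of members compared. The striatum list spans from -1.16 to 0.85, while brain matrix and thyroid hormone handling are below 0 in both lines.

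Markers of cells next to or within the dissected tissue were read as summed FPKM over each list in the order Nfia knockout, Nfib knockout, Nfia-line wild type and Nfib-line wild type. The choroid plexus list summed to 6.90, 107, 5.37 and 7.38 FPKM, so the Nfib knockouts stood apart, with Ttr alone at 94.8 of the 107 FPKM there. Of its 6 members compared 2 were higher in all 4 pairings (33.3%, beside 14.4% of all genes) and none was lower. These were Ttr, which rose in both lines, and Folr1, a folate receptor. Folr1 was at 0.0345 and 1.18 FPKM in the knockouts and 0.0262 and 0 FPKM in the wild types. It reached 1 FPKM in the Nfib knockout alone, so it was compared only through the group where it is high. Its smallest pairing, between values near 0 FPKM, was 0.40 log2 units and fell to 0.012 with 1 FPKM added. The share of this list is therefore a description and no evidence of a change in both lines. The other 8 of the 14 listed genes stayed under 1 FPKM in every group. Meningeal genes summed to 34.6, 35.7, 32.7 and 49.98 FPKM, with 1 of 8 lower (12.5%, beside 17.8% of all genes). Microglial genes summed to 46.0, 44.1, 44.0 and 44.5 FPKM, with 4 of 11 higher by small margins (36.4%, beside 14.4%). None of the microglial genes passed the q-value in either line. The part of these cells in the genes above was not tested. The Nfib-line wild types were highest in meningeal and astrocyte sums (49.98 and 325 FPKM, the latter against 234 to 255 FPKM elsewhere). Reference genes chosen as stable were not free of such separations: 4 of 12 were higher (33.3%, beside 14.4% of all genes) and 3 lower (25%, beside 17.8%). None passed the q-value in either line, and Gapdh was at 755 and 802 FPKM against 698 and 750.5 FPKM.

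The own-line folds can be read against the error that the deposited p-values imply, taken as the fold divided by the normal deviate of its p-value. This error holds no difference between the lines, so it is not the error of a smallest pairing, which can cross lines. For genes at 1 to 5 FPKM its median was 0.23 log2 units in the Nfia and 0.25 in the Nfib comparison, and at 20 to 100 FPKM 0.14 and 0.15. The threshold of 1.5-fold is 0.58 log2 units. Of genes past the q-value in one line, the share that also held in all 4 pairings was 26.7% for the 333 higher genes (2.66% of those tested) and 69.1% for the 149 lower genes (1.19%) of the Nfia comparison. It was 49.1% for the 279 higher genes (2.23%) and 41.7% for the 405 lower genes (3.23%) of the Nfib comparison. Over all genes above 0, the wild types of the lines differed by a median of 0.13 log2 units and the knockouts by 0.11, and 145 and 152 genes differed by 2-fold or more.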

How the data were processed

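RNA of embryonic day 16 neocortex was isolated with Trizol, and libraries used the Illumina TruSeq kit, per the labels' protocols. The submitters' processing notes name TopHat2 2.0.10, Cuffdiff 2.1.1, Cufflinks, CASAVA 1.8.2 and build mm9. Strand handling is not given in the sources used here; antisense and overlapping genes cannot be told apart. Per the file headers, the deposited values are FPKM that the authors averaged over each group. For each line the authors deposited the log2 fold, its p-value and its q-value. Some fold cells hold spreadsheet errors.

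Values per library are not in this table, so depth is unknown and limma, planned for such values, was replaced by the planned fallback: the 4 pairings, with the authors' q-values at 0.05. p-values then measure only the spread between libraries, which may be technical. The members and the 30 gene lists were chosen with earlier results of these data known. The naming rule took the NFI and sex-linked genes, the 15 widest folds and 12 most abundant genes per direction, up to 4 separated and 2 overlapping members per list and 5 genes on each side of the threshold; other genes named, among them members of the 51 and 20, were chosen after their values were seen. A few genes the rule takes are not reported here. Globin genes, being near-identical, are uncertain. The smallest deposited p-value is 5e-05, so the smallest q-values, 0.00286 and 0.00207, do not rank genes. Scripts ran in Python 3.11.15 with scipy 1.17.1, pandas 2.3.3, matplotlib 3.10.9 and numpy 2.4.6, and the pairing rule was tested on simulated data. Promoters were taken from RefSeq, build GRCm38.p6, by symbol, and chromosomes from a RefSeq gene list by symbol or synonym.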

Additional observations from a re-analysis of the deposited data

Results flagged for a closer look

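Of the 173 genes past the deposited q-value in both lines, 93 were higher in the Nfia and lower in the Nfib comparison and 8 the reverse. No difference between the lines was tested for any gene in this part. Values below are the log2 fold in the Nfia comparison minus that in the Nfib comparison, from the authors' deposited table.

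The sex-linked genes differed most: 8.72 for Ddx3y, 9.15 for Eif2s3y, 8.95 for Kdm5d and -9.81 for Xist. The first 3 were near 0 FPKM in the Nfia-line wild types, as Xist was in the Nfib-line wild types.

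Lhx9, a thalamic transcription factor gene, differed by 3.63 and was at 1.59 and 0.842 FPKM in the Nfia and Nfib knockouts and 0.523 and 3.50 FPKM in the wild types. The noncoding RNA gene Snhg11 differed by 2.93 (48.7 and 14.6 against 14.1 and 33.3 FPKM) and the imprinted noncoding Rian by 1.27 (137 and 74.7 against 93.1 and 126 FPKM). Tmem130 differed by 1.22 (54.9 and 35.0 against 32.5 and 49.6 FPKM). In the other direction, Zkscan3 differed by -1.09 (32.1 and 43.9 against 45.5 and 30.0 FPKM) and Scrt2, a zinc finger repressor of newborn neurons, by -0.99 (44.5 and 68.3 against 61.6 and 48.8 FPKM).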

How the results depend on the processing

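Of 56 alternative counts, 41 stayed within 1.5 times the reported one and 15 did not; the latter follow. The 30 higher and 48 lower genes at 1.5-fold became 9 and 22 with a minimum of 5 FPKM, 484 and 265 with no minimum, 11 and 23 with 1 FPKM added and 7 and 14 at 2-fold. A minimum of 0.5 FPKM gave 46 higher genes, and no minimum gave 2861 higher by any margin. Of the 20 and 51 genes past the q-value in both lines, 7 and 31 remained at a q-value of 0.01, 10 and 31 at 1.5-fold in all 4 pairings, and 12 higher genes at a minimum of 5 FPKM. Each of these moves a threshold or, with FPKM added, shrinks the folds of low genes by construction. Own-line pairings alone gave 37 and 67 genes at 1.5-fold, and leaving out small RNA genes, an alternative chosen after seeing the data, gave 27 and 43. Scaling the columns, by shifts of at most 0.0062 log2 units, gave 2073 higher and 1958 lower by any margin. The reported counts were 1814 and 2235, so the direction with more genes reversed. Shares by any margin thus depend on small shifts between columns.

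For 140 named genes, 420 values with a pseudocount of 0.1 or 1 FPKM or with scaled columns included no reversal, and 121 moved by more than 0.1 of their size; Satb1 overlapped after scaling. Leaving out each replicate could not be run because the table holds group averages. No paired analysis was possible because the columns carry no replicate numbers.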
